A study of Homo sapiens with 17 samples.

Results

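The dual-specificity MAP kinase phosphatases described here are 9 genes, DUSP1, DUSP4, DUSP5, DUSP6, DUSP7, DUSP8, DUSP10, DUSP14 and DUSP16. They were chosen by name from the family, with earlier results of these data known. All 9 were among the 19222 genes of the 1 h table. TL-seq (sequencing after TimeLapse chemistry) had been performed on HEK-293T cells, a human embryonic kidney line that carries the SV40 large T antigen. In the 1 h experiment, 3 libraries came from cells given 500 µM s4U alone (untreated) and 3 from cells given 500 µM s4U together with 1.8 µM emetine, an alkaloid that blocks the movement of ribosomes along mRNA. A further untreated library and a further library with 1.8 µM emetine came from cells given no s4U. A separate 2 h experiment, whose labels record 250 µM s4U throughout, compared untreated cells with cells given emetine at 1.8 µM or at 240 µM (3 libraries each). Nothing in the labels says whether replicates were separate cultures, so the p-values measure the spread between these libraries, which may be technical.

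MAP kinases are switched on when a MAP kinase kinase phosphorylates a threonine and a tyrosine in their activation loop. Dual-specificity phosphatases remove both phosphates and so end the signal, and many of them are themselves induced by the pathways they silence. Classical members differ in where they sit and what they act on: DUSP1, DUSP4 and DUSP5 are nuclear, DUSP6 and DUSP7 are cytoplasmic and prefer ERK, and DUSP8, DUSP10 and DUSP16 prefer the stress kinases JNK and p38. DUSP14 is a small atypical member that lacks the kinase-binding domain of the others. Translation inhibitors are known to activate JNK and p38 and to raise the mRNAs of immediate early genes.

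After 1 h of low-dose emetine, the DUSP1 transcript was about 6-fold higher than in untreated cells, and nearly all of its reads were labeled in both conditions. DUSP8 was 1.57-fold higher, a smaller change that did not pass the threshold in most fits without 1 library. The fits in which it did not pass called 4 to 239 genes higher, against 365 with all the labeled libraries. DUSP10 and DUSP16 were higher in all 3 emetine libraries than in any untreated library, and DUSP7 was lower in all 3, but none of these 3 passed the threshold. Of all genes tested, 19.5% were higher in this way and 15.2% lower. DUSP4, DUSP5 and DUSP14 had overlapping levels in the 2 conditions, and DUSP6 was barely detected. The comparison asks which phosphatase mRNAs change in level on mild inhibition of elongation, and whether the change lies in RNA made during the hour or in older RNA.

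The libraries held between 22246279 and 40018063 reads that were given to a gene. Levels are counts scaled to the gene reads of each library after TMM normalization (CPM), so that fewer cells and less RNA per cell cannot be told apart. Of the HEK-293T markers, VIM ranged from 459 to 657 CPM over the 8 libraries, NEFM from 141 to 213 CPM, NEFL from 101.8 to 125 CPM and KRT18 from 33.2 to 60.9 CPM, while KRT8 reached 7.06 CPM and PAX2 2.93 CPM. The blood and endothelial markers reported here stayed at or below 0.0944 CPM, with PTPRC at 0, and of the fibroblast markers COL1A1 was between 19.3 and 28.1 CPM, COL3A1 between 1.61 and 3.34 CPM and DCN between 0.0250 and 0.157 CPM. The emetine replicate 3 library stood apart, with an SD over genes of 0.258 (log2) around its group mean against 0.0878 to 0.155 in the other 5 labeled libraries. That deviation rose with transcript length (Spearman's rho 0.763 across 10101 genes, which are not independent replicates), and its part in the results was not tested. Values without that library are given where they change a call.

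DUSP1 and DUSP8 are shown first, because they were the members whose level passed the test, and their promoters share a motif. Each promoter below holds 250 bases before and 50 after the RefSeq start site on GRCh38.p14, read on the coding strand, with the letters TGACG and its reverse complement CGTCA in capitals. TGACGTCA is the full cyclic AMP response element (CRE), to which ATF and CREB family factors are known to bind, and TGACG is its short form. A full CRE holds the short form on both strands, so the pair of matches overlaps. The DUSP1 promoter lies at chr5:172771146-172771445 and the DUSP8 promoter at chr11:1572222-1572521, both on the minus strand.
DUSP1 promoter: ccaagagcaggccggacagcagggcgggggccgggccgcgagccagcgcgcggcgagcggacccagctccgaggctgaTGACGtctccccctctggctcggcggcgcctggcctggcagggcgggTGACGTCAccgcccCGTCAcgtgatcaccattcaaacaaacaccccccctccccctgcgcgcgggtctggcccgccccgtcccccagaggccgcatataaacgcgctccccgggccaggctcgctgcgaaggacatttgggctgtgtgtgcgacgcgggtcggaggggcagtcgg
DUSP8 promoter: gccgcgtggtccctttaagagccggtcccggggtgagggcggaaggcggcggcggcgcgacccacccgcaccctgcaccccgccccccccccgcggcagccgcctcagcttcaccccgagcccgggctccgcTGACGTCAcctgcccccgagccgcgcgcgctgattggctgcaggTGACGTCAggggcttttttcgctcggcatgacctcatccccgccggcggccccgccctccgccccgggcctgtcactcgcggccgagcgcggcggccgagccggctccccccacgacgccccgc

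The DUSP1 promoter held 1 full CRE, starting 125 bases before the start site, and 4 short forms. The DUSP8 promoter held 2 full CREs, at 118 and 74 bases before the start site. Of 35116 RefSeq promoters of the same length, 1.85% held at least 1 full CRE, 0.0598% held at least 2 and 24.6% held at least 1 short form. Neither the promoters of DUSP6, DUSP7, DUSP14 and DUSP16 nor either of 2 DUSP10 promoters held a full CRE, and the short form was found among these 6 only once, at the second DUSP10 start site. The AP-1 element TGACTCA, which 4.95% of all promoters held, was found in none of these 8 promoters. The promoters of DUSP4 and DUSP5 were not analysed here. These matches describe letters in a window, not binding, and their part in the changes of level was not tested.

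**Figure D1:**
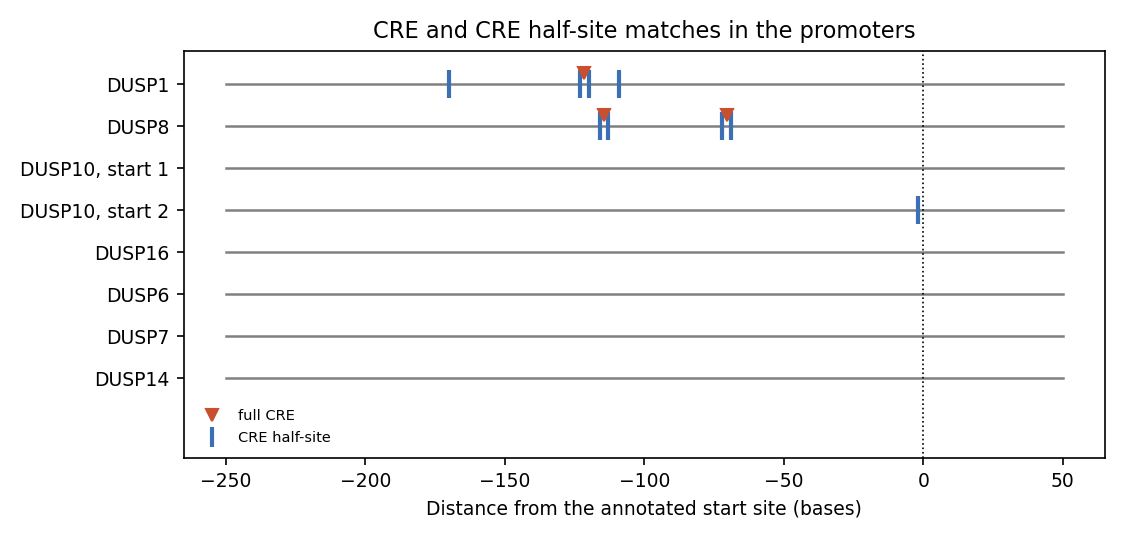
Matches to the full CRE (triangles) and to its short form (bars) in 8 promoters of 7 members, plotted as distance from the annotated start site in bases. DUSP1 has 1 full CRE and DUSP8 has 2, and the other 5 members plotted have none. DUSP4 and DUSP5 are not plotted.

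DUSP1 (MKP-1) is a nuclear, immediate early phosphatase of p38, JNK and ERK. The gene lies at chr5:172768096-172771195 on the minus strand (GRCh38, GENCODE 44), with 4 exons and a 2013-base canonical transcript. Its level was 35.5, 37.6 and 46.4 CPM in the untreated libraries and 204, 220 and 294 CPM in the emetine libraries. All emetine libraries lay far above all untreated ones. The means were 39.9 ± 5.79 CPM and 239 ± 47.7 CPM (SD, n = 3 each), a 6.01-fold difference. The log2 fold change was 2.59 (SE 0.164, edgeR quasi-likelihood test, adjusted p = 0.00035). Without s4U the level was 40.8 CPM in the untreated library and 227 CPM with emetine, a 5.57-fold ratio with no replicate, so the rise was also present in cells that were not labeled. The emetine effect with and without s4U differed by 0.11 on the log2 scale (SE 0.311, edgeR interaction, adjusted p = 0.985). The level test called DUSP1 in all of the 14 fits run, with log2 fold changes between 2.42 and 3.28.

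DUSP8, which acts on JNK and p38, lies at chr11:1554051-1572271 on the minus strand, with 7 exons and a 4824-base transcript. It was at 9.24, 9.48 and 9.48 CPM in the untreated libraries and at 14.0, 14.3 and 15.8 CPM in the emetine libraries. The lowest emetine library was thus above the highest untreated library, and the untreated libraries hardly differed among themselves. The means were 9.40 ± 0.136 and 14.7 ± 0.972 CPM (SD, n = 3 each). The log2 fold change was 0.65 (SE 0.117, edgeR adjusted p = 0.0272). Without s4U the levels were 9.29 CPM untreated and 15.6 CPM with emetine, a 1.68-fold ratio. Of the 6 fits that each left out 1 library, only the fit without emetine replicate 3 kept the call (edgeR adjusted p = 0.00214). In the other 5 the adjusted p lay between 0.059 and 0.162, while the log2 fold change over all 6 stayed between 0.60 and 0.68. Those 5 fits called 4, 5, 18, 132 and 239 genes higher, against 365 in the main fit. GENCODE lists processed pseudogenes of DUSP8 and DUSP5. Of these, DUSP5P1 alone had reads of its own in the table, 11 to 38 per library, and reads shared between a gene and such a copy could not be traced.

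With DUSP1 and DUSP8, 2 of the 8 members tested were called higher, beside 2.65% of all 13776 genes tested. None was called lower, beside 0.0436% of all genes. At an unadjusted edgeR p under 0.05, 4 members were higher, beside 14.9% of all genes, and 1 was lower, beside 6.95%. DESeq2 called 3 members higher and none lower, beside 6.59% and 1.25% of the 12440 genes it gave an adjusted p. The median log2 fold change over the 8 members was 0.29, against 0.03 over all genes tested. The members were chosen with earlier results of these data known, so their counts and median do not stand for the family. The classical phosphatases DUSP2 and DUSP9, outside the list, changed by -0.17 and -0.26. All emetine libraries were above all untreated libraries for 4 of the 8, beside 19.5% of all genes, and below them for 1 of the 8, beside 15.2% of all genes.

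**Figure D2:**
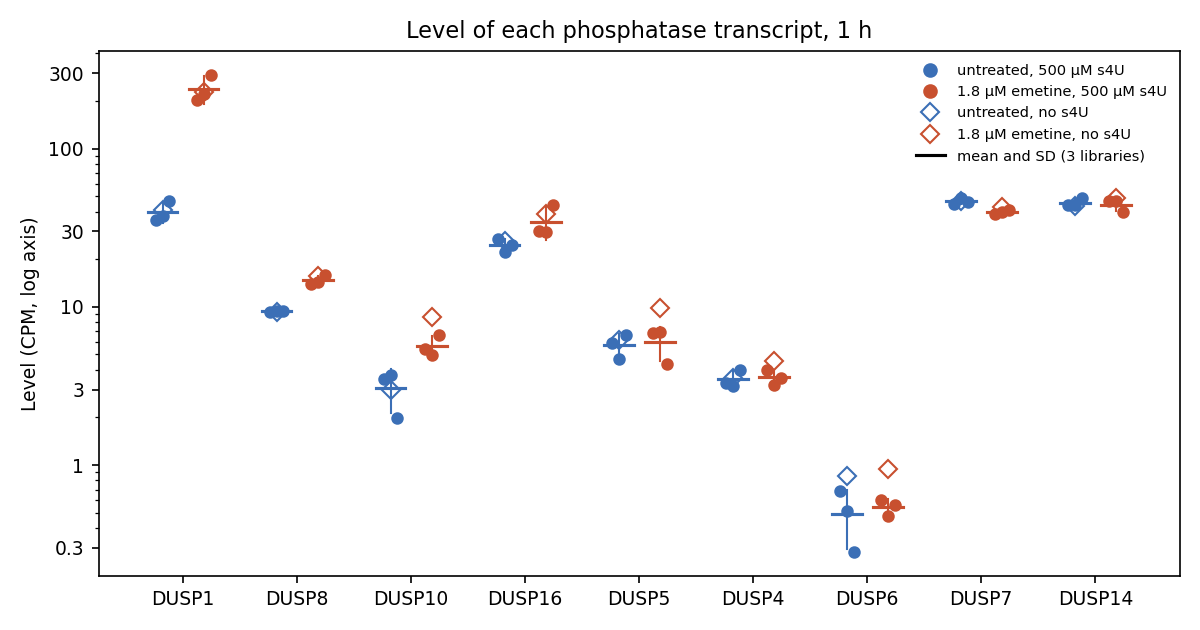
Level of each member in CPM (log axis) in the 8 libraries of the 1 h experiment, with filled points for libraries with s4U (bars give the mean and SD of 3) and open diamonds for the single libraries without s4U. DUSP1 moves from about 40 to about 240 CPM, DUSP8, DUSP10 and DUSP16 move up by less, and the other members overlap or, for DUSP7, lie slightly lower with emetine.

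The other members that prefer JNK and p38, DUSP10 (MKP-5) and DUSP16 (MKP-7), were both higher with emetine without passing the test. DUSP10 (chr1:221701424-221742089, minus strand, 4 exons) was at 3.51, 3.72 and 1.98 CPM in the untreated libraries and 5.42, 4.99 and 6.60 CPM in the emetine libraries. Its groups did not overlap, but they rested on 42 to 200 reads per library. The log2 fold change was 0.86 (SE 0.242, edgeR adjusted p = 0.110). Without s4U, DUSP10 was at 2.97 CPM untreated and 8.59 CPM with emetine, a 2.89-fold ratio. When those 2 libraries entered the fit with s4U as a covariate, DUSP10 was called (log2 fold change 1.03, adjusted p = 0.0258), in a fit that called 4.67% of all genes higher. DUSP10 was called in 4 of 14 fits: this one, DESeq2 (adjusted p = 0.0218), the fit without emetine replicate 3 (0.73, adjusted p = 0.0417) and the fit with the trend on transcript length and GC removed (0.93, adjusted p = 0.0446). The last of these called 9.15% of all genes higher. It left out the TMM factors, and its median log2 fold change over all genes was 0.076, against 0.030 in the main fit. The part of the missing factors in its calls was not tested.

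DUSP16 (chr12:12473282-12562863, minus strand, 7 exons) was at 26.98, 22.2 and 24.6 CPM in the untreated libraries and 30.0, 29.8 and 44.03 CPM in the emetine libraries. Among the labeled libraries, emetine replicate 3 alone was far above the rest. The log2 fold change was 0.49 (SE 0.164, edgeR adjusted p = 0.160). Without emetine replicate 3 it was 0.29 and was called (adjusted p = 0.0457), in a fit that called 10.1% of all genes higher and 3.87% lower. DUSP16 has the longest transcript of the 9 members, 6661 bases. With the trend on transcript length and GC removed, in the fit without TMM factors, its log2 fold change was 0.42 (edgeR adjusted p = 0.0503). The part of length in the value of emetine replicate 3 was not tested. Without s4U its level was 26.2 CPM untreated and 38.5 CPM with emetine.

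Neither of the cytoplasmic, ERK-preferring members was called. DUSP7 (MKP-X, chr3:52048919-52056571, minus strand, 3 exons) was at 45.0, 48.9 and 45.7 CPM in the untreated libraries and 38.8, 39.7 and 41.1 CPM in the emetine libraries. All emetine libraries were thus below all untreated ones. The log2 fold change was -0.22 (SE 0.0861, edgeR adjusted p = 0.198), it was called without emetine replicate 3 (-0.24, adjusted p = 0.0317), and with spike-in scaling, which raised the median of all genes to 0.71, it turned to 0.44 (adjusted p = 0.418). DUSP6 (MKP-3, chr12:89347235-89352501, minus strand, 3 exons), a feedback inhibitor of ERK in many cell types, had only 6 to 30 reads per library. Its level was 0.68, 0.52 and 0.28 CPM in the untreated and 0.60, 0.47 and 0.56 CPM in the emetine libraries. With 98 reads over the 6 labeled libraries it did not enter the test, and a change was not detectable at this depth.

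The other nuclear members, DUSP4 (MKP-2) and DUSP5, were not called. DUSP4 (chr8:29333064-29350684, minus strand, 4 exons) was at 3.30, 3.15 and 4.01 CPM in the untreated libraries and at 4.00, 3.22 and 3.53 CPM with emetine. The log2 fold change was 0.04 (SE 0.184, edgeR adjusted p = 0.899). DUSP5, an ERK-selective phosphatase (chr10:110497907-110511533, plus strand, 4 exons), was at 5.88, 4.70 and 6.60 CPM in the untreated libraries and at 6.79, 6.96 and 4.35 CPM with emetine. Its log2 fold change was 0.09 (SE 0.217, edgeR adjusted p = 0.821), with emetine replicate 3 the lowest of all 8 libraries. Without s4U, DUSP5 was at 6.19 CPM untreated and 9.88 CPM with emetine, and the effects with and without s4U differed by -0.58 (SE 0.429, edgeR interaction, adjusted p = 0.985).

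DUSP14 (MKP-6, chr17:37489891-37513501, plus strand, 3 exons) was at 43.9, 44.2 and 48.4 CPM in the untreated libraries and at 46.4, 46.6 and 39.7 CPM with emetine. The groups overlapped, and the log2 fold change was -0.04 (SE 0.0994, edgeR adjusted p = 0.824), a sign that turned in 5 of the other 13 fits. Neither an emetine effect that differed with s4U nor an effect of s4U itself passed the test for any of the 8 members tested.

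Per length of the canonical transcript, DUSP14 was the most abundant member in untreated cells, at 29.8 to 32.9 CPM per kb. It was followed by DUSP1 at 17.6 to 23.1, DUSP7 at 13.4 to 14.6 and DUSP16 at 3.33 to 4.05 CPM per kb. DUSP5, at 1.896 to 2.67, and DUSP8, at 1.92 to 1.97 CPM per kb, overlapped and could not be put in order. DUSP10 at 0.765 to 1.44, DUSP4 at 0.567 to 0.722 and DUSP6 at 0.0780 to 0.188 CPM per kb came last, and the ranges of no other neighbors overlapped. With emetine, DUSP1 reached a mean of 119 ± 23.7 CPM per kb (SD, n = 3) and DUSP14 was at 30.0 ± 2.65, so DUSP1 had become the most abundant of the 9.

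To separate RNA made during the hour from older RNA, reads were sorted by their T-to-C conversions. s4U that enters new RNA is recoded by the chemistry and read as C, and the fraction new is the estimated share of a gene's reads that come from RNA made with s4U present. Without s4U, 12 of 16850 reads of the 9 members had 2 or more conversions, in 3 of the genes. With s4U, 83.2%, 85.6% and 81.0% of DUSP1 reads had 2 or more conversions in the untreated libraries, and 80.4%, 86.7% and 79.3% with emetine. For untreated replicate 1 the 95% Wilson interval was 80.8% to 85.4%, and such intervals cover counting error only. Most DUSP1 reads thus carried label in both conditions. For DUSP8 the shares were 31.0%, 26.6% and 35.8% untreated and 39.9%, 44.1% and 43.8% with emetine, and for DUSP14 they were 16.1%, 24.1% and 20.6% untreated and 12.3%, 13.7% and 12.4% with emetine.

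**Figure D3:**
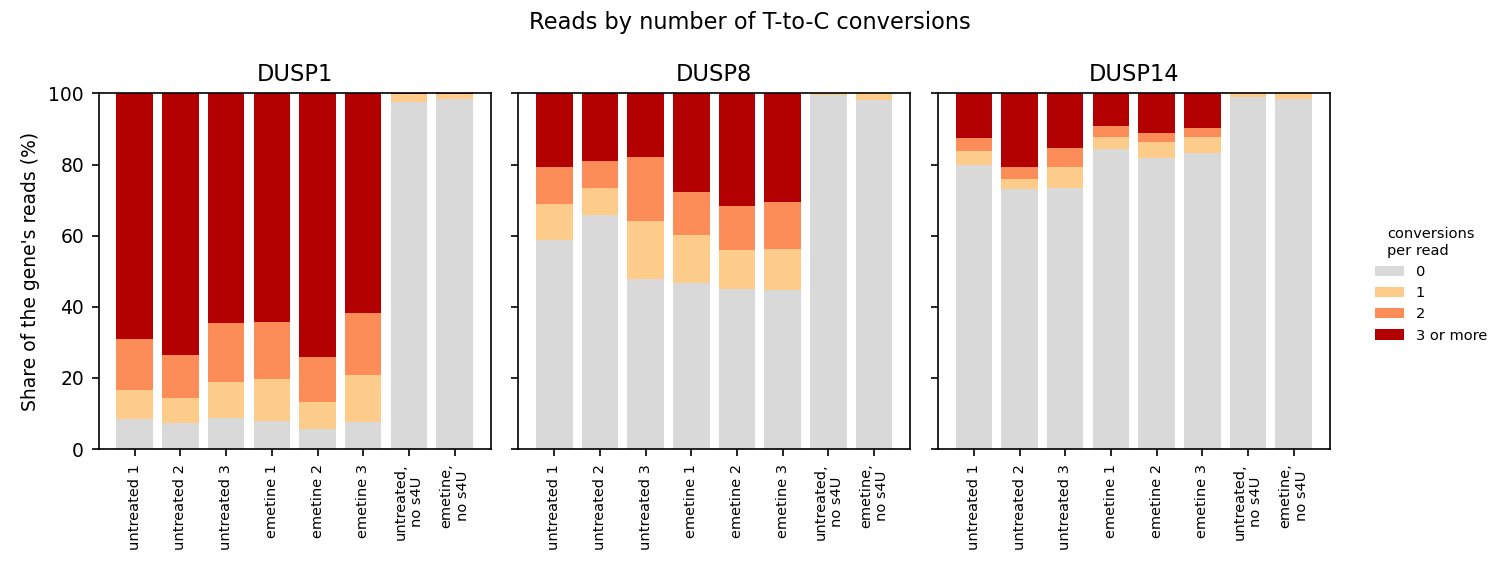
Share of reads of DUSP1, DUSP8 and DUSP14 (percent of the gene's reads) with 0, 1, 2 and 3 or more T-to-C conversions in each of the 8 libraries. Nearly all reads of the libraries without s4U have 0 conversions, DUSP1 reads mostly have 3 or more in all labeled libraries, and the labeled share of DUSP8 is higher and that of DUSP14 lower in the emetine libraries.

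The fraction new of DUSP1 was 94.95%, 96.5% and 97.2% in the untreated libraries and 97.6%, 97.7% and 98.8% with emetine. Its untreated mean of 96.2% ± 1.15 (SD, n = 3) was higher than that of 99.95% of 10763 genes, whose median was 12.2%. With a steady state and labeling from the start of the hour assumed, it corresponds to a lifetime at which 50% remains of 12.7 ± 1.17 min. In the untreated libraries 10.05%, 9.72% and 9.39% of DUSP1 T positions were converted. The new-read rates fitted to those libraries were lower, at 9.53%, 8.87% and 8.49%. The fraction new and lifetime of DUSP1 thus rest on a rate below its own, and the SD covers the spread between libraries only. The fraction new of DUSP5 was 63.7%, 75.03% and 66.5% in the untreated libraries and 58.1%, 55.9% and 58.0% with emetine, and its untreated mean exceeded that of 98.4% of genes. DUSP7, at a mean of 48.2% ± 7.49, DUSP8, at 45.4% ± 10.9, and DUSP16, at 34.8% ± 7.99, exceeded 94.6%, 93.7% and 88.7% of genes. DUSP14, at 24.3% ± 4.07, exceeded 79.1% of genes. The 6 members with enough reads were therefore all above the median gene in untreated cells. DUSP4, DUSP6 and DUSP10 had fewer than 100 reads in at least 1 labeled library and were not tested. DUSP10 was at 66.4%, 78.0% and 53.4% untreated and 59.6%, 72.2% and 80.4% with emetine, and DUSP4 at 30.6%, 45.1% and 48.0% untreated and 30.6%, 33.3% and 26.2% with emetine.

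With emetine, the fraction new was higher in all emetine libraries than in all untreated ones for 2 of the 6 members tested, DUSP1 and DUSP8, beside 2.19% of all genes. It was lower in all emetine libraries for 3 of the 6, DUSP5, DUSP7 and DUSP14, beside 16.8% of all genes. None of the 6 passed the limma test in either direction, beside 0.214% of genes called higher and 4.83% called lower. At an unadjusted limma p under 0.05, 2 members were higher, beside 1.15% of all genes, and 1 was lower, beside 15.4%. Limma with weights from read counts called 1 member higher, beside 0.232% of genes, and 1 lower, beside 7.2%. For DUSP8, whose fraction new was 43.7%, 35.5% and 57.0% in the untreated libraries and 59.5%, 58.6% and 63.0% with emetine, the change in logit was 0.61 (SE 0.242, limma adjusted p = 0.144). For DUSP1 it was 0.69 (SE 0.333, adjusted p = 0.271), and it was called when libraries were weighted by reads (adjusted p = 0.00281). With the share of reads with 2 or more conversions in place of the estimate, the DUSP1 change was -0.07 (limma adjusted p = 0.881). That share does not allow for the number of T positions in a read. DUSP1 reads held on average 40.9, 46.2 and 37.8 T positions in the untreated libraries and 35.8, 43.7 and 34.0 with emetine. The part of this difference was not tested.

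The fraction new of DUSP14 was 19.6%, 26.8% and 26.4% in the untreated libraries and 15.4%, 16.3% and 16.2% with emetine. The change in logit was -0.51 (SE 0.209, limma adjusted p = 0.156). It was called with weights from read counts (adjusted p = 0.0227), after centering on library medians, as were 6.95% of all genes (-0.39, adjusted p = 0.0427), and without untreated replicate 1 (-0.65, adjusted p = 0.00776). For DUSP7, at 40.04%, 49.7% and 54.8% untreated and 38.7%, 35.2% and 39.9% with emetine, the change was -0.42 (SE 0.229, adjusted p = 0.365). DUSP5 changed by -0.49 (SE 0.249, adjusted p = 0.317). Both were called without untreated replicate 1, at -0.58 (adjusted p = 0.0164) and -0.60 (adjusted p = 0.0278). With DUSP14, 3 of the 6 members were lower in that fit, which called 23.4% of all genes lower. The median fraction new of all genes was 9.26% in that library, 12.3% and 14.7% in the other untreated libraries and 10.3% to 11.0% with emetine, so the untreated libraries differed in labeling. DUSP16, at 26.9%, 34.5% and 42.9% untreated and 27.6%, 32.7% and 33.5% with emetine, overlapped between conditions (-0.15, SE 0.221, adjusted p = 0.829).

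**Figure D4:**
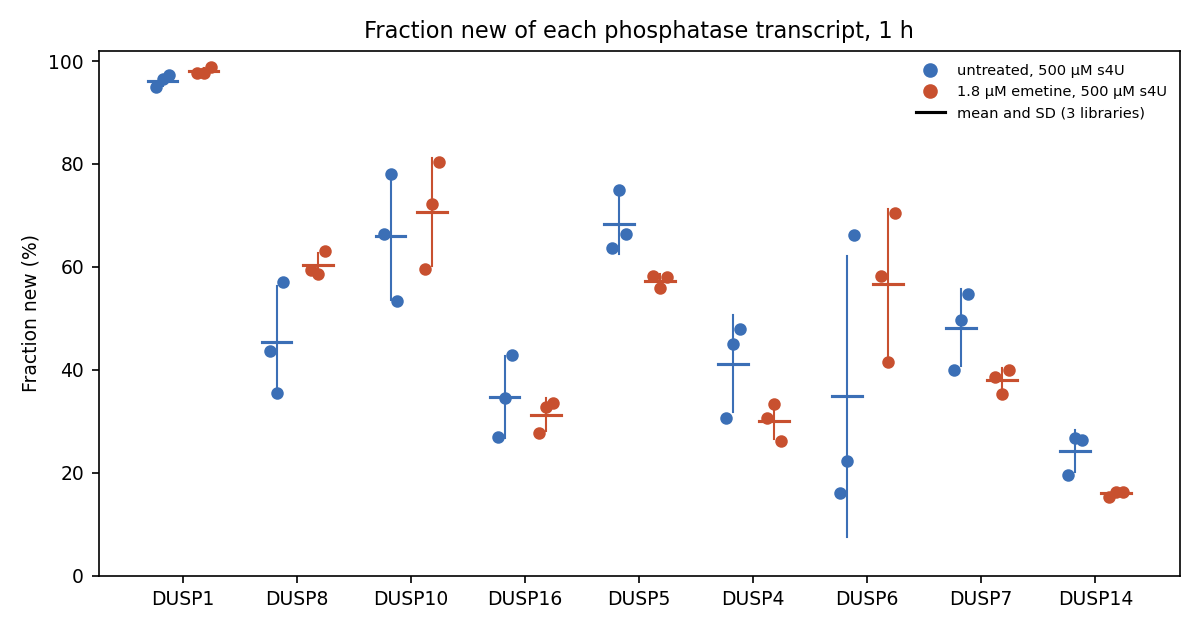
Fraction new (percent) of each member in the 3 untreated and 3 emetine libraries with s4U, with the mean and SD. DUSP1 is at 94.95% or above in every library, the untreated libraries spread more than the emetine libraries for most members, and DUSP4, DUSP6 and DUSP10 rest on fewer reads.

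The level was then split into labeled reads (CPM times fraction new) and unlabeled reads (the rest). Labeled DUSP1 reads rose from 38.4 ± 5.98 to 235 ± 48.6 CPM and unlabeled ones from 1.47 ± 0.277 to 4.50 ± 0.910 CPM (SD, n = 3 each). Of the mean gain of 199 CPM, 98.5% was labeled. On the log2(CPM + 0.5) scale, labeled reads changed by 2.59 (SE 0.202, limma adjusted p = 1.2e-33) and unlabeled reads by 1.33 (SE 0.199, limma adjusted p = 0.00532). The first of these p-values rests on the spread pooled over genes and not on that of DUSP1 itself. The unlabeled part of DUSP1 is a small remainder that depends on the estimate: over 12 fits, all of which called it, the change ranged from 0.90 to 2.36, the highest with reads that carry no conversion. Such reads numbered 84, 98 and 86 of 991, 1314 and 984 DUSP1 reads untreated. With emetine they numbered 557, 491 and 595 of 7152, 8829 and 7828. A new read without a conversion cannot be told from a read of older RNA, so this rise cannot be assigned to older RNA.

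Labeled DUSP8 reads were 4.04, 3.36 and 5.41 CPM in the untreated libraries and 8.34, 8.40 and 9.97 CPM with emetine. They changed by 1.00 (SE 0.256, limma adjusted p = 0.0199). Unlabeled DUSP8 reads were 5.20, 6.11 and 4.07 CPM untreated and 5.68, 5.92 and 5.86 CPM with emetine, a change of 0.18 (SE 0.168, limma adjusted p = 0.482). For labeled reads limma put the whole weight on the spread pooled over genes. The DUSP8 call was lost without untreated replicate 2, emetine replicate 1, emetine replicate 2 or emetine replicate 3 (limma adjusted p between 0.149 and 0.709). Those fits called 13, 14, 16 and 13 genes higher, against 28 in the main fit.

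DUSP1 and DUSP8 were the 2 of 6 members tested whose labeled reads were called higher, beside 0.26% of all genes. No member was called lower, beside 0.632% of all genes, although at an unadjusted limma p under 0.05 labeled DUSP7 and DUSP14 reads were lower, beside 10.6% of all genes. Labeled DUSP7 reads went from 22.5 ± 3.87 to 15.1 ± 1.202 CPM (log2 change -0.54, SE 0.229, limma adjusted p = 0.287) and labeled DUSP14 reads from 11.1 ± 2.202 to 7.06 ± 0.584 CPM (-0.60, SE 0.247, adjusted p = 0.270), against a median of -0.14 over all genes. Both were called without untreated replicate 1, at -0.69 (adjusted p = 0.00809) and -0.77 (adjusted p = 0.00854), in a fit that called 16.1% of all genes lower. Labeled DUSP16 reads changed by 0.33 (adjusted p = 0.652) and labeled DUSP5 reads by -0.17 (adjusted p = 0.876).

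Of the unlabeled reads, DUSP1 was the 1 member of 6 called higher, beside 7.3% of all genes, and none was called lower, beside 0.0929%. As said above, the DUSP1 call may include new reads without a conversion. Unlabeled DUSP16 reads were 19.7, 14.51 and 14.0 CPM in the untreated libraries and 21.7, 20.03 and 29.3 CPM with emetine. The log2 change of unlabeled DUSP16 reads was 0.54 (SE 0.182, limma adjusted p = 0.118). Thus for DUSP8 the gain of 5.32 CPM was 87.1% labeled, and for DUSP16 the gain of 10.0 CPM was 24.4% labeled, a pair of values whose difference was not tested. Without emetine replicate 3 the DUSP16 gain was 5.32 CPM, 9.97% of it labeled, and the DUSP8 gain was 4.76 CPM, 85.9% of it labeled. Unlabeled DUSP7 reads (24.1 ± 3.18 and 24.7 ± 0.942 CPM) and DUSP14 reads (34.4 ± 1.81 and 37.2 ± 3.37 CPM) did not pass the test either (adjusted p = 0.831 and 0.533).

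**Figure D5:**
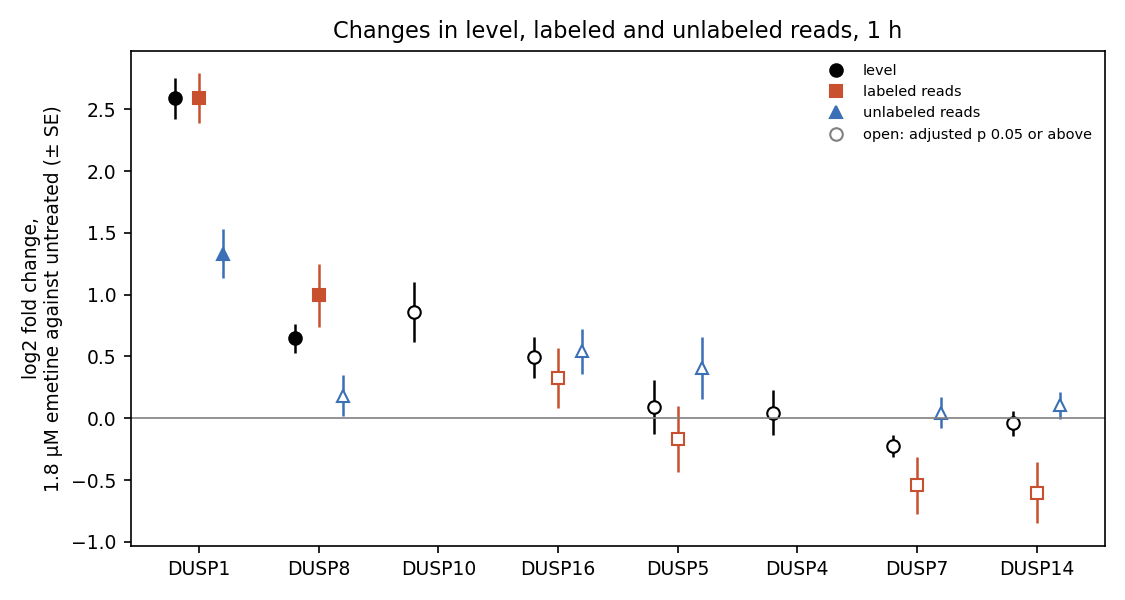
Log2 fold change (± SE) with emetine of the level, the labeled reads and the unlabeled reads of each member tested, with filled symbols at an adjusted p under 0.05. DUSP1 is filled for all 3 measures and DUSP8 for level and labeled reads, and labeled reads of DUSP7 and DUSP14 lie below 0 with open symbols. With spike-in scaling, not plotted, the level changes of DUSP7 and DUSP14 are above 0 but below the median of all genes, 0.71.

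The members also differ in sequence features that the choice of genes did not use. AUUUA pentamers in a 3′ UTR are the core of AU-rich elements, which mark many short-lived mRNAs. Over 11712 tested genes with a 3′ UTR of at least 100 bases, the median density was 1.79 AUUUA per kb. DUSP1 had 4 in 666 bases, or 6.01 per kb, more than 95.1% of genes, and DUSP14 had 3 at 4.77 per kb, more than 90.1% of genes. DUSP10 had 3.04, DUSP16 2.25, DUSP8 1.62 and DUSP4 1.51 per kb, while DUSP5 and DUSP7 had none. DUSP5, with no AUUUA, had the next highest fraction new after DUSP1 among the 6 members tested. Overlapping copies of ATTTA (DNA letters, in capitals) occur in these 30-base windows of the 3′ UTRs of DUSP1, DUSP8 and DUSP10, and DUSP16 has a pair of separate copies, all from GENCODE 44.
DUSP1 3′ UTR window: ggctggtccttATTTATTTAacttcacccg
DUSP8 3′ UTR window: ttcgattttttATTTATTTAagctgttcat
DUSP10 3′ UTR window: aagaaaaaaaaATTTATTTAaaaatatttt
DUSP16 3′ UTR window: gaagttacATTTAagaaaATTTAtaagaaa
The share of G or C at the last position of codons ranged from 57.7% in DUSP16 to 89.8% in DUSP8 and lay above the median of tested genes, 59.2%, in 8 of the 9 members.

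The lists of related phosphatases, kinases and feedback inhibitors, which do not cover the whole pathway, held no gene whose level passed the test. Over 7 lists with 58 genes, 54 were tested for level and none was called by edgeR in either direction. Of all genes tested, 2.65% were called higher and 0.0436% lower. At an unadjusted p under 0.05, 4 were higher and 5 were lower, beside 14.9% and 6.95% of all genes. The other classical phosphatases DUSP2 and DUSP9 were not called, with DUSP9, an ERK-preferring cytoplasmic phosphatase, at 79.7 ± 9.30 CPM untreated and 66.8 ± 5.48 CPM with emetine (log2 -0.26, edgeR adjusted p = 0.224). Of 13 atypical dual-specificity phosphatases, 10 were tested, with a median log2 change of 0.06, led upward by DUSP28 (0.45, adjusted p = 0.272) and downward by DUSP15 (-0.73, adjusted p = 0.188). The substrates themselves, 10 MAP kinases, had a median of 0.02, between MAPK3 (ERK1, -0.29, adjusted p = 0.160) and MAPK14 (p38α, 0.18, adjusted p = 0.245) by p-value.

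Among the 7 MAP kinase kinases, whose median was -0.03, the smallest p-values belonged to MAP2K2 (MEK2, -0.31, adjusted p = 0.211) and MAP2K7 (an activator of JNK, 0.09, adjusted p = 0.599). The 9 MAP3 kinases had a median of 0.19, and MAP3K1, which activates the JNK branch, went from 9.71 ± 0.170 to 19.4 ± 7.65 CPM (log2 1.00, SE 0.241, edgeR adjusted p = 0.0701). The level of MAP3K1 spread far more among the emetine than among the untreated libraries, and the part of emetine replicate 3 was not tested. Its fraction new fell from 47.2% ± 8.38 to 30.1% ± 1.83 (limma adjusted p = 0.0384) and its unlabeled reads rose by 1.27 (limma adjusted p = 0.0134). MAP3K11 was the MAP3 kinase with the smallest p among those lower (-0.11, adjusted p = 0.435). The 10 kinases activated by MAP kinases had a median of -0.05, with MAPKAPK5 at 0.16 (adjusted p = 0.288) and MKNK2 at -0.24 (adjusted p = 0.179).

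Of the 7 Sprouty and Spred genes, which are feedback inhibitors of the ERK pathway, 6 were tested, all 6 with a positive change and a median of 0.14, led by SPRED1 (0.37, adjusted p = 0.269). SPRY1 was singled out after its values were seen: its level was 14.4 ± 1.44 and 15.6 ± 1.75 CPM, while its fraction new fell from 96.3% ± 1.53 to 83.5% ± 2.24 (change in logit -1.69, limma adjusted p = 8.66e-05). SPRY1 and DUSP1 thus had nearly the same fraction new in untreated cells, and with emetine the fraction new of SPRY1 was lower while that of DUSP1 was 98.0% ± 0.689. Over all 7 lists, 48 genes were tested for fraction new, 2 were called lower, beside 4.83% of all genes, and none higher, and 2 were called higher in unlabeled reads, beside 7.3%.

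The genes whose level followed DUSP1 most closely over the 8 libraries, by the root mean square difference of log2(CPM + 0.5) relative to the untreated mean, were TXNIP (0.37), JUN (0.45) and ATF3 (0.52). JUN and ATF3 encode immediate early transcription factors, and TXNIP encodes a thioredoxin-binding protein. Their log2 fold changes were 2.03, 3.10 and 1.91. Their fraction new was 92.4%, 84.4% and 59.2% in the untreated libraries and 97.5%, 90.3% and 71.4% with emetine, and of the 3 TXNIP was called higher (limma adjusted p = 0.0122, 0.411 and 0.272). Those nearest to DUSP8 were ZNF319 (0.05), ZNF337 (0.06) and TRPV1 (0.06), with log2 fold changes of 0.62, 0.63 and 0.60. Their mean fraction new was lower with emetine (67.2% to 44.9%, 47.8% to 31.9% and 31.9% to 15.4%), whereas that of DUSP8 was higher (45.4% to 60.4%). In the limma test ZNF319 (adjusted p = 0.0106) and TRPV1 (0.00489) were called lower and ZNF337 was not (0.0707), and the difference from DUSP8 itself was not tested.

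In the 2 h experiment, 4 of the 9 members were listed among 9982 genes: DUSP1, DUSP7, DUSP14 and DUSP16. The authors' mean of normalized counts over all 2 h libraries was 5430 for DUSP1, higher than for 94.7% of the genes listed. It was 1326 for DUSP16, 610.4 for DUSP7 and 278 for DUSP14. These means pool untreated and treated libraries and say nothing of either dose.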

How the data were processed

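The 9 members and the pathway lists were chosen with earlier results of these data known. For the 1 h experiment, the authors trimmed reads with cutadapt, mapped them to hg38 with hisat-3n and tabulated conversions with bam2bakR; the deposited values are read counts per library, gene and conversion number, without normalization. Libraries were made with a stranded mRNA kit. For the 2 h experiment the deposited mean of normalized counts (a signal scaled by the authors on spike-in reads and averaged over all libraries) was used. The tables' fold changes, standard errors and p-values were not used, nor were the spike-in factors.

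Counts were summed per gene. Levels were compared with edgeR 4.0.16 (TMM, quasi-likelihood) in R 4.3.3, with genes kept whose counts over the 6 labeled libraries summed to more than 100. The fraction new was the weight of a 2-component binomial mixture, with the background rate of the library without s4U of the same treatment (0.0504% and 0.0521% of T positions) and a new-read rate fitted per library (8.49% to 9.53%). Its logit (bounded at 0.001 and 0.999), and log2 of labeled and unlabeled CPM plus 0.5, were compared with limma 3.58.1 (trend, robust) where every labeled library held at least 100 reads of the gene. Tests were two-sided, and a gene was called at a Benjamini-Hochberg adjusted p under 0.05 over all genes tested. The smallest p that exact permutation of 3 and 3 libraries allows is 0.1. For the members tested for fraction new, limma gave the pooled spread 77.5 degrees of freedom, against 4 for the gene's own spread. The bakR package of the study was not run. The tests were checked on simulated data.

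Alternatives were DESeq2 1.42.0, other scalings, filters, pseudocounts and weights, the replicate block and leaving out each library. Removal of a trend on transcript length and GC was chosen after seeing the data, and that fit did not carry the TMM factors. Of 19222 symbols, 17152 matched GENCODE 44. Named genes were all members, the gene with the smallest p in each direction of each list, and the 3 non-members with the level profile nearest to each member called. Other tools were Python 3.11.15, numpy 2.4.6, pandas 2.3.3, scipy 1.17.1 and matplotlib 3.10.9. A blood marker of the marker list is not reported here.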

Additional observations from a re-analysis of the deposited data

How the results depend on the processing

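The 2 members called for level became 1 (DUSP1) with spike-in scaling and with the replicate block, which called 60 and 75 genes higher. Without 1 library each they became 1 to 5. The fit that gave 5, without emetine replicate 3, called 10.1% of all genes higher and 3.87% lower. The fits that gave 1 called 4 to 239 genes higher, against 365 in the main fit. Spike-in scaling turned DUSP7 to 0.44 and DUSP14 to 0.64, and DUSP8 missed the threshold (1.32, edgeR adjusted p = 0.162). The median over all genes was then 0.71, above DUSP7 and DUSP14. Spike-in reads made up 0.480% to 0.728% of reads in the untreated labeled libraries and 0.304% to 0.666% in the emetine ones. DUSP14 also turned to 0.0094 with all 8 libraries and to 0.19 with the length and GC trend removed, a fit that left out the TMM factors. Without 1 library each, the log2 fold change of level ranged from -0.082 to 0.036 for DUSP14, from -0.043 to 0.15 for DUSP4 and from -0.040 to 0.28 for DUSP5. For fraction new, the 0 members called became 1 after centering, 2 with weights from read counts, and 0 to 3 without 1 library each. Centering called 6.95% of all genes lower, and the weights called 0.232% higher and 7.2% lower. The fit that gave 3, without untreated replicate 1, called 23.4% of all genes lower. The logit change of DUSP1 turned to -0.070 with the share of reads with 2 or more conversions, which does not allow for T positions per read. The logit change of DUSP16 ranged from -0.33 to 0.030 without 1 library each. The 2 members called for labeled reads became 1 to 4 without 1 library each, and the change of DUSP5 then ranged from -0.26 to 0.016. The fit that gave 4, without untreated replicate 1, called 64 genes higher and 16.1% of all genes lower. The fits that gave 1 called 13 to 16 genes higher. Unlabeled reads gave 1 called member in every fit, and these fits called 281 to 1472 genes higher. The change of unlabeled DUSP7 reads ranged from -0.058 to 0.13 without 1 library each. The causes were not tested. Of the other values of single members, 272 kept their direction and their side of the threshold, 14 came to pass it and 11 no longer did.

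The replicate numbers are shared across groups, but same-numbered libraries did not deviate together (correlations of 0.070, -0.015 and -0.18 for level), and not every library correlated best with its own number. With the replicate block, DUSP8 had an adjusted p of 0.0875 (edgeR), and the genes called for level went from 365 higher and 6 lower to 75 and 3. The block left the number of members called at 0 for fraction new, 2 for labeled reads and 1 for unlabeled reads. Depth limits DUSP6, with at most 30 reads per library, and the fraction new of DUSP4 and DUSP10.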
